A study of Rattus norvegicus with 12 samples.

Results

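Expression of 36 genes of DNA replication and mitosis was followed in rat liver during feeding with a high-fat emulsion. Every gene was found on the array by its current or an older symbol (Cdk1 was listed as Cdc2a), and where a gene had several probe sets the one brightest on average was used. The 36 were taken from 13886 genes with 1 symbol. By role, 7 of them act in G1 and at entry into S phase (Ccnd1, Ccnd2, Ccnd3, Cdk4, Ccne1, Ccne2 and Cdk2), 12 act in S phase (Mcm2 to Mcm7, Pcna, Rfc4, Rrm1, Rrm2, Tyms and Tk1) and 17 act in G2 and mitosis (Ccna2, Cdk1, Ccnb1, Ccnb2, Cks2, Top2a, Mki67, Aurka, Aurkb, Plk1, Bub1, Bub1b, Cdc20, Birc5, Kif11, Ube2c and Racgap1).

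The cell cycle is driven by cyclin-dependent kinases whose cyclin partners are made and destroyed in turn: D-type cyclins in G1, E-type cyclins at entry into S phase, cyclin A in S phase and G2, and B-type cyclins in mitosis. Replication genes are transcribed largely under E2F factors at the border of G1 and S phase, and mitotic genes later, under complexes that bind CCAAT boxes and the cell cycle homology region (CHR) of their promoters. Hepatocytes of the adult liver are mostly at rest, but they can enter the cycle again after tissue loss or injury, and many rat hepatocytes are polyploid.

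All samples were liver of Sprague-Dawley rats, and the labels give an age of 12 weeks for every group. The 4 groups of 3 arrays each were normal liver at 0h and liver after 2, 4 or 6 weeks of the emulsion, a diet used to produce a model of nonalcoholic fatty liver disease. The 3 arrays of a group are labelled technical replicates, and the sources used here do not say how many rats were sampled, so the p-values below measure only the spread between arrays, which may be technical. The 0h arrays were the only unfed ones, so feeding and elapsed time cannot be told apart. The comparisons with 0h share those 3 arrays.

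Signals were compared between the groups as log2(signal + 1). Each array had been scaled to a trimmed mean of 500.2 to 500.3 and had a median signal of 118 to 130. Arrays of a group had a log2 SD whose median was 0.16 over all genes and 0.22 over the members. A signal under the 30th percentile of its array, which lay between 45.5 and 54.0, is called dim here. The 8 hepatocyte markers were above that level on all arrays, with a summed signal of 242228 to 312392. Of the 36 members, 34 had a mean log2 signal above 5.45, the 30th percentile of all probe sets, and were tested among 11322 genes. The untested members were Plk1 and Bub1b. A gene was called at a limma p-value under 0.05 after Benjamini-Hochberg adjustment over all genes tested.

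Of the 15 tested genes of G2 and mitosis, 6 rose after 2 weeks of feeding (40%, against 15.5% of all genes). Between 2 and 4 weeks 9 fell (60%, against 8%), and from 4 to 6 weeks 3 rose again (20%, against 6.27%). The calls of these 3, Racgap1, Top2a and Cdk1, were lost in 8, 7 and 5 of 12 cases with an array left out. Of the rises at 2 weeks, those of Cdc20, Ccna2 and Birc5 were lost in 7, 6 and 2 such cases. Of the falls from 2 to 4 weeks, those of Ccnb1, Ccna2, Cdc20, Ube2c and Top2a were lost in 10, 9, 5, 5 and 3. Rrm2, the small subunit of ribonucleotide reductase, and Cdk1, the kinase that drives entry into mitosis, passed in all 3 steps, as did Top2a and Racgap1. After 2 weeks Rrm2 and Cdk1 stood 3.04-fold and 2.72-fold over 0h. The second probe sets of Rrm2 and Racgap1 gave log2 changes of 0.49 and 0.29 at 2 weeks and were not called. Of the 6 subunits of the MCM helicase, which unwinds DNA at the replication fork, Mcm4 was lower at 2 and 4 weeks, Mcm5 was higher at 6 weeks and 4 passed no test against 0h. Ccne2, cyclin E2, was higher at all 3 feeding times by its brighter probe set, and not called with the mean of its probe sets. In bulk liver, a change in the share of cycling cells and a change in RNA per cell cannot be told apart.

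In counts, 10 of the 34 tested members were higher at 2 weeks than at 0h, or 29.4%, where 15.5% of all genes tested were higher. Only Mcm4 was lower, against 12.6% of all genes. At 4 weeks 2 members were higher (Ccne2 and Rrm2) and 3 were lower (Mcm4, Ccnb2 and Ccnd1), against 14.3% and 15.1% of all genes. At 6 weeks 8 members were higher, or 23.5%, against 14.7% of all genes, and Ccnb2 alone was lower, against 12.6%. The median log2 change of the members was 0.34 at 2 weeks, -0.10 at 4 weeks and 0.28 at 6 weeks, where the median of all genes was 0.01, -0.03 and 0.00. The moderated F test over the 3 feeding times called 14 of the 34 members, or 41.2%, close to the 38.6% of all genes that it called. A further 15 tested members passed in none of the 6 comparisons made. In either direction 11 members were called at 2 weeks, 5 at 4 weeks and 9 at 6 weeks, where 28.1%, 29.5% and 27.3% of all genes were called. The count of 11 at 2 weeks was 7 without replicate 2 of 0h and 7 without replicate 3 of 2 weeks.

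The group with the highest mean log2 signal was read for each role. Among the 15 tested genes of G2 and mitosis, 13 had their highest mean at 2 weeks and the other 2, Aurkb and Kif11, at 6 weeks. The untested Plk1 was highest at 0h and Bub1b at 2 weeks. The 12 S phase genes peaked at 6 weeks in 7 cases, at 2 weeks in 3 and at 0h in 2, and the 7 genes of G1 at 0h in 4 and at 6 weeks in 3. No tested member had its highest mean log2 signal at 4 weeks (Rfc4 did by mean linear signal, at 289.1 against 287.0 at 6 weeks), which was the brightest group for 20.4% of all genes. The brightest group of all genes was 0h for 32.3%, 2 weeks for 24.3% and 6 weeks for 22.9%. These shares are a description, and the difference between the roles was not tested. They use the brightest probe set of each gene. By their second probe sets, Racgap1 was highest at 6 weeks and Cdk2 at 4 weeks, while Ccnb1 and Top2a were highest at 2 weeks. Some other probe sets of Cdc20 were highest at 0h and some at 2 weeks.

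**Figure D1:**
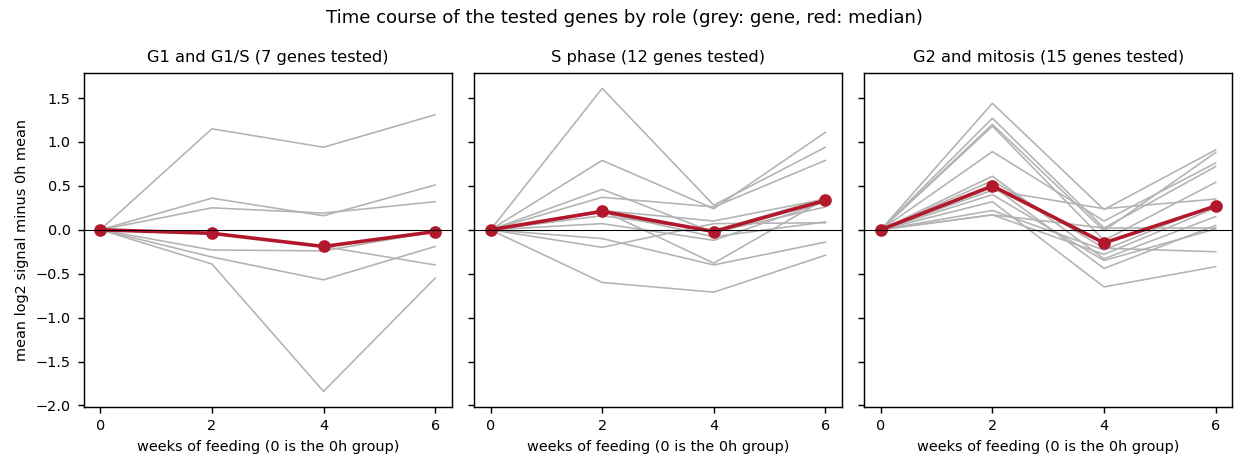
Mean log2 signal of each tested gene at 2, 4 and 6 weeks of feeding (horizontal axis, weeks) minus its mean at 0h (vertical axis, log2), in 3 panels by role. Grey lines are genes and the red line is the median of the panel. The median of the G2 and mitosis genes was 0.50 at 2 weeks, -0.15 at 4 weeks and 0.27 at 6 weeks, while that of the G1 genes lay between -0.20 and -0.02.

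Among the G1 genes, 2 of 7 were called higher at 2 weeks, 1 higher and 1 lower at 4 weeks, and 2 higher at 6 weeks. The 14.3% called in each direction at 4 weeks were near the 14.3% and 15.1% of all genes, and the 28.6% called higher at 2 and at 6 weeks rest on 2 genes each. Their median log2 change was -0.04, -0.20 and -0.02, and the 6-week median was 0.29 without replicate 3 of 6 weeks.

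Ccne2, which binds Cdk2 at entry into S phase, had signals of 51.1, 37.2 and 54.1 at 0h, 117.2, 94.1 and 104.6 at 2 weeks, 101.7, 103.1 and 71.2 at 4 weeks, and then 143.3, 129.1 and 87.0 at 6 weeks. The 3 arrays at 0h were the lowest of the 12 and did not overlap with any fed array. Since 2 of the 3 arrays at 0h were dim, the folds are lower bounds: at least 2.00-fold at 2 weeks, at least 1.73-fold at 4 weeks and at least 2.23-fold at 6 weeks. The limma log2 changes were 1.15 ± 0.22 (SE), 0.94 ± 0.22 and 1.30 ± 0.22, with adjusted p of 0.00404, 0.0106 and 0.00197. A dimmer second probe set of Ccne2 lay under the level needed for a test and had log2 changes of 0.39, 0.63 and -0.23. With the mean of the probe sets, none of the 3 calls of Ccne2 was kept (adjusted p = 0.121, 0.111 and 0.281, limma). The fed groups of Ccne2 did not pass a test against each other.

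Ccnd3, a D-type cyclin, had signals of 487.3, 477.7 and 570.7 at 0h. It reached 667.7, 679.4 and 621.6 at 2 weeks, 578.0, 546.1 and 595.4 at 4 weeks, and then 670.0, 777.0 and 735.5 at 6 weeks. The arrays of 2 and 6 weeks all lay above those of 0h, and those of 4 weeks overlapped with them. It rose 1.28-fold at 2 weeks (log2 0.36 ± 0.09, adjusted p = 0.0116) and 1.42-fold at 6 weeks (0.51 ± 0.09, adjusted p = 0.00192), by limma, while at 4 weeks the difference was 0.17 (adjusted p = 0.181).

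Ccnd1, the D-type cyclin that responds to growth signals, gave 761.3, 842 and 782.3 at 0h. Its signals were 663, 560.5 and 707.6 at 2 weeks, 565.9, 477.1 and 576.9 at 4 weeks, and then 579.8, 741.6 and 797.1 at 6 weeks. All arrays at 4 weeks were under those at 0h, and the 6-week arrays overlapped with those at 0h but not with those at 4 weeks. Ccnd1 fell by 0.56 ± 0.13 on the log2 scale at 4 weeks (adjusted p = 0.0113, limma), and both of its other probe sets differed by -0.48 there. At 2 weeks it differed by -0.31 (adjusted p = 0.116) and at 6 weeks by -0.18 (adjusted p = 0.36).

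The remaining G1 genes passed no test. Ccnd2 ranged from 279.1 to 532.7 over the 12 arrays, and its log2 difference from 0h was -0.40 at 6 weeks, called without replicate 3 of 0h (adjusted p = 0.042). Cdk4, the partner of the D-type cyclins, was bright, at 1685.2 to 2654.4. Cdk2, the partner of cyclins E and A, lay between 195.8 and 337.6. Ccne1, cyclin E1, was dim on 4 of 12 arrays: it read 102.9, 99.5 and 108.6 at 0h, but 101.1, 19.9 and 10.8 at 4 weeks and 161, 104.4 and 20.6 at 6 weeks. Its 4-week arrays thus spanned 10.8 to 101.1, and the log2 change of -1.84 at 4 weeks had an SE of 0.89 and an adjusted p of 0.156, or 0.0365 without replicate 1 of 4 weeks.

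Of the 12 S phase genes, Rrm2, Tk1, Mcm4, Mcm5 and Pcna were called against 0h at some feeding time. At 2 weeks 2 of 12 were higher and 1 lower, at 4 weeks 1 was higher and 1 lower, and at 6 weeks 3 were higher and none was lower by limma, with 6 of 12 at an unadjusted p under 0.05. Of all 11322 genes, 4323 had an unadjusted p under 0.05 at 6 weeks. The shares called higher were 16.7%, 8.33% and 25%, against 15.5%, 14.3% and 14.7% of all genes. Their median log2 change was 0.21, -0.02 and 0.34.

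Rrm2, which sets the supply of deoxynucleotides together with Rrm1, gave closely spaced arrays, at 356.4, 367.2 and 369.7 at 0h, 1131.6, 1098.3 and 1099.4 at 2 weeks, 398.9, 437.2 and 492.8 at 4 weeks, and then 701.6, 714.6 and 686.6 at 6 weeks. No 2 groups overlapped, and the order was 2 weeks, 6 weeks, 4 weeks, 0h. The log2 changes from 0h were 1.60 ± 0.07 (adjusted p = 6.63e-07), 0.28 ± 0.07 (adjusted p = 0.0184) and 0.94 ± 0.07 (adjusted p = 1.7e-05) in limma. The small difference at 4 weeks, 1.21-fold, lost its call without replicate 1 of 0h (adjusted p = 0.0592). In the authors' deposited table, the 9 log2 ratios of Rrm2 at 2 weeks ran from 1.2 to 1.6. A second and dimmer probe set of Rrm2 moved the same way by less, at 0.49, 0.13 and 0.33, and was not called. With the mean of the probe sets, the calls of Rrm2 at 4 weeks against 0h, 6 against 4 weeks and 6 against 2 weeks were lost.

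Rrm1, the large subunit of the same enzyme, passed no test, with 303.5 to 493.1 over the arrays and log2 differences of 0.07, -0.12 and 0.32. Tk1, thymidine kinase of the salvage pathway, gave 432.5, 380 and 378.6 at 0h, 525.2, 534.2 and 576.9 at 2 weeks, 344.5, 326.9 and 512.8 at 4 weeks, and then 472, 494.5 and 456.6 at 6 weeks. The 2-week arrays lay above all others of Tk1, and replicate 3 of 4 weeks lay apart from the other 2 of its group. Tk1 rose 1.37-fold at 2 weeks (log2 0.46 ± 0.15, adjusted p = 0.0448, limma). That call was lost without any 1 of the arrays of 0h, 2 weeks or 6 weeks, with log2 changes of 0.42 to 0.52 and adjusted p of 0.0577 to 0.117. Without replicate 3 of 4 weeks, the difference of Tk1 between 2 and 4 weeks was called (-0.70, adjusted p = 0.00126). Tyms, thymidylate synthase, ranged from 118 to 223.5 and passed no test.

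Pcna, the sliding clamp of the replication fork, was among the brightest members. It read 2070.4, 1795.4 and 1869.1 at 0h, 2130.8, 2234.1 and 2043.9 at 2 weeks, 1917.4, 1922.1 and 1852.9 at 4 weeks, and then 2519.6, 2469.2 and 2358.2 at 6 weeks. The 6-week arrays stood above the other 9, which overlapped in part. Pcna rose 1.28-fold at 6 weeks (log2 0.36 ± 0.07, adjusted p = 0.00307, limma), and differed by 0.16 at 2 weeks (adjusted p = 0.0976, and 0.0394 without replicate 1 of 0h) and by -0.01 at 4 weeks (adjusted p = 0.941). Rfc4, a subunit of the complex that loads the clamp, ranged from 207.2 to 369.9 and passed no test.

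The 6 subunits of the MCM helicase gave calls in both directions. Mcm4 had signals of 248.2, 283.4 and 319.9 at 0h, 214.1, 157.4 and 193 at 2 weeks, 192.6, 152.3 and 176.4 at 4 weeks, and then 258, 212.7 and 226.6 at 6 weeks. All arrays of 2 and 4 weeks were under those of 0h, while those of 6 weeks overlapped with 0h. It fell by 0.59 ± 0.14 on the log2 scale at 2 weeks (adjusted p = 0.0121) and by 0.70 ± 0.14 at 4 weeks (adjusted p = 0.00486), by limma. In the authors' deposited table the 9 log2 ratios of Mcm4 at 2 weeks had a median of -0.1, with 7 negative and 1 positive, and at 4 weeks a median of -0.5, with all 9 negative.

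Mcm5 moved the other way, with 193, 137.6 and 151.6 at 0h, 264.2, 200.3 and 165.5 at 2 weeks, 196.9, 162 and 216.2 at 4 weeks, and then 337.5, 244.9 and 252 at 6 weeks. Its 6-week arrays lay above those of 0h, and the other fed groups overlapped with 0h. Mcm5 rose 1.72-fold at 6 weeks (log2 0.79 ± 0.20, adjusted p = 0.018, limma). The call was lost without replicate 2 or 3 of 0h or replicate 1 of 6 weeks, at adjusted p of 0.0558 to 0.0636. Mcm6 passed no test against 0h, where it differed by 0.22, -0.38 and 0.35 (at 6 weeks adjusted p = 0.0789, and 0.0204 without replicate 3 of 0h), but it was lower at 4 than at 2 weeks and higher at 6 than at 4 weeks. Mcm3 was dim on 1 array and spread widely at 0h, where it read 29.9, 76 and 113.7, and its difference of 1.11 at 6 weeks had an adjusted p of 0.0989, or 0.0351 without replicate 3 of 0h. Mcm2, at 156.9 to 236.6, and Mcm7, at 276.5 to 518.3, passed no test.

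**Figure D2:**
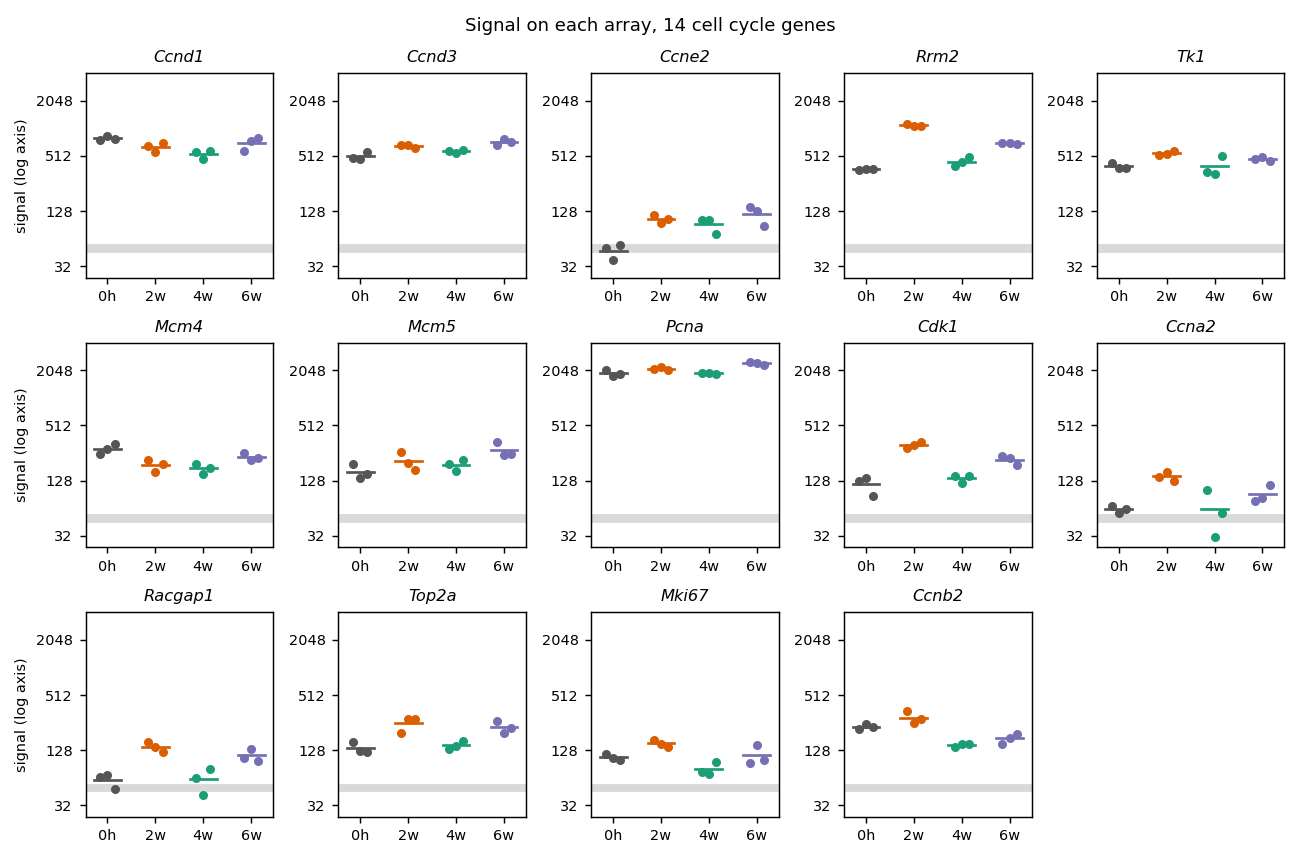
Signal on each of the 12 arrays (vertical axis, log scale) by group (horizontal axis) for the 14 genes given array by array. Points are arrays, lines are group means and the grey band spans the dim levels of the arrays, 45.5 to 54.0. Rrm2 separates all 4 groups without overlap, whereas Ccne2, Ccna2 and Racgap1 sit near the grey band at 0h.

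Promoter windows of 300 bases, from 250 before to 50 after the annotated start, were at hand from RefSeq (assembly GRCr8) for 27 of the 36 members, and not for Ccnd1, Ccnd2, Ccne2, Mcm4, Rrm2, Ccna2, Ube2c, Racgap1 and Aurkb. Each was searched on both strands for E2F words (TTTCCCGC, TTTCGCGC, TTTGCCGC or TTTGGCGC), for the CCAAT box and for the CHR word TTTGAA. E2F words were present in 6 of 10 windows of S phase genes (60.0%), in 1 of 13 windows of mitotic genes (7.69%) and in 0 of 4 windows of G1 genes, against 2.14% of all 33469 windows of that length. The S phase windows with E2F words were those of Mcm2, Mcm3, Mcm5, Mcm6, Mcm7 and Tyms. These are matches of letters, given as a description. The 250 bases before the start of Mcm5 and Mcm6 are shown because these helicase genes carry both E2F words and CCAAT boxes and passed a test in at least 1 of the 6 comparisons. Capitals mark the words found on either strand. In both genes an E2F word of 1 strand overlaps with an E2F word of the other, and they run together in the capitals. Mcm5 lies at chr19:13488563-13488812 on the plus strand and Mcm6 at chr13:42404353-42404602 on the minus strand.
Mcm5: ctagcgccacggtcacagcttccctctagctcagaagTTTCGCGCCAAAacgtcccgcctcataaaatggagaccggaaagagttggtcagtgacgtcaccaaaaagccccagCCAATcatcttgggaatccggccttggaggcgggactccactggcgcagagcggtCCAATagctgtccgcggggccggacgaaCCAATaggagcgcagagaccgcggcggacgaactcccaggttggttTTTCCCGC
Mcm6: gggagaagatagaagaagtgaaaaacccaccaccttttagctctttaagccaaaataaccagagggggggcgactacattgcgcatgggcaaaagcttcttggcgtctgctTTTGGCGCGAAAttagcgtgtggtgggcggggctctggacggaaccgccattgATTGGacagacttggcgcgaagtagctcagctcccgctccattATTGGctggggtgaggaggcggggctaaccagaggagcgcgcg

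Of the 15 tested genes of G2 and mitosis, 6 rose at 2 weeks by limma (40%, against 15.5% of all genes). None fell, against 12.6% of all genes, and 10 had an unadjusted p under 0.05, as did 4458 of all 11322 genes. All 15 had a positive change, with a median of 0.50. That leaves out the untested Plk1, which differed by -1.38 at 2 weeks, and Bub1b, at 0.47. At 4 weeks none was higher, against 14.3% of all genes, and Ccnb2 was lower (6.67%, against 15.1%), by the same test. At that time 2 of the 15 had an unadjusted p under 0.05, as did 4484 of all 11322 genes. At 6 weeks Cdk1, Racgap1 and Top2a were higher (20%, against 14.7% of all genes) and Ccnb2 was lower (6.67%, against 12.6%).

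Cdk1 had signals of 128.4, 135.7 and 86.8 at 0h, 289.1, 313.4 and 339.8 at 2 weeks, 143, 120.7 and 144.4 at 4 weeks, and then 237.5, 224.3 and 191.2 at 6 weeks. The arrays of 2 weeks were the brightest, those of 6 weeks came next, and those of 0h and 4 weeks overlapped. Cdk1 rose 2.72-fold at 2 weeks (log2 1.44 ± 0.16, adjusted p = 0.000207) and 1.88-fold at 6 weeks (0.91 ± 0.16, adjusted p = 0.00282), by limma. At 4 weeks it differed by 0.24 (adjusted p = 0.323). The authors' deposited table holds 9 log2 ratios of 1.0 to 1.6 for Cdk1 at 2 weeks and of -0.2 to 0.4 at 4 weeks.

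Ccna2, the cyclin that partners Cdk2 and Cdk1, was much dimmer, with 67, 56.1 and 62.9 at 0h, 138.6, 160 and 127.6 at 2 weeks, 101.6, 30.7 and 57.4 at 4 weeks, and then 77.2, 82 and 115.8 at 6 weeks. The 2-week arrays stood above all others, and 1 of the 4-week arrays was dim. Ccna2 rose 2.27-fold at 2 weeks (log2 1.18 ± 0.35, adjusted p = 0.031, limma). The call was lost without any 1 of the 6 arrays compared, at log2 changes of 1.09 to 1.25 and adjusted p of 0.056 to 0.0919. At 6 weeks the difference of 0.54 had an adjusted p of 0.3.

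Of the B-type cyclins, Ccnb2 gave 216, 244.1 and 228.4 at 0h, 340.1, 251.7 and 277.5 at 2 weeks, 139.2, 151 and 148.4 at 4 weeks, and then 151.1, 172.8 and 193 at 6 weeks. The arrays of 2 weeks lay above 0h and those of 4 and 6 weeks lay under it. At 2 weeks the difference of 0.33 had an adjusted p of 0.0714, which was 0.04 without replicate 2 of 2 weeks. Ccnb2 fell by 0.65 ± 0.12 on the log2 scale at 4 weeks (adjusted p = 0.00312) and by 0.42 ± 0.12 at 6 weeks (adjusted p = 0.0288), by limma. The 6-week call was lost without replicate 2 or 3 of 0h or replicate 1 or 2 of 6 weeks, at adjusted p of 0.0682 to 0.0963. At 6 weeks Ccnb2 was thus lower than at 0h where Cdk1 was higher.

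Ccnb1 ranged from 128.8 to 277.4 and was not called against 0h (0.41, -0.35 and 0.01), and its second probe set gave 1.27, 0.44 and 0.58. At 2 weeks Ccnb1 was called higher with that probe set alone and with the mean of both (adjusted p = 0.00466 for the mean, limma). Cks2, a small subunit of the Cdk complexes, was bright and even, at 796 to 1135.8, and passed no test.

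Top2a, the topoisomerase that untangles DNA before chromosomes part, gave 155.6, 125 and 123.5 at 0h, 194.9, 282.9 and 282.5 at 2 weeks, 131.3, 143.1 and 159.6 at 4 weeks, and then 268.4, 197.2 and 223.8 at 6 weeks. All arrays of 2 and 6 weeks were above those of 0h and of 4 weeks. Top2a rose 1.86-fold at 2 weeks (log2 0.89 ± 0.17, adjusted p = 0.00397) and 1.70-fold at 6 weeks (0.76 ± 0.17, adjusted p = 0.00894), by limma. Its second probe set gave 1.33, -0.18 and 0.52, and was called at 2 weeks but not at 6 weeks (adjusted p = 0.123).

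Mki67, the gene of the proliferation antigen Ki-67, gave 115.1, 105.1 and 99.7 at 0h, 166.9, 150.1 and 137.9 at 2 weeks, 73.6, 69.6 and 94.5 at 4 weeks, and then 93, 146.7 and 99.6 at 6 weeks. The 2-week arrays lay above those of 0h and the 4-week arrays under them, without overlap, but neither difference passed limma's test: the log2 difference was 0.50 ± 0.17 (adjusted p = 0.0586) at 2 weeks and -0.43 (adjusted p = 0.0933) at 4 weeks. Both were called without replicate 3 of 4 weeks (adjusted p = 0.0477 and 0.0483) and without replicate 2 of 6 weeks (adjusted p = 0.0178 and 0.0307). At 6 weeks the difference was 0.06.

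Racgap1, a regulator of cytokinesis, was near the dim level at 0h and 4 weeks. It read 65.2, 68.5 and 48.6 at 0h, 158.5, 139.7 and 120.9 at 2 weeks, 64.2, 41.6 and 79.2 at 4 weeks, and then 105.8, 132.1 and 98.5 at 6 weeks. The arrays of 2 and 6 weeks were above all of the others, and 1 array each of 0h and 4 weeks was dim. Racgap1 rose at least 2.27-fold at 2 weeks (log2 1.19 ± 0.23, adjusted p = 0.00415) and at least 1.82-fold at 6 weeks (0.88 ± 0.23, adjusted p = 0.0194), by limma. The 6-week call was lost without replicate 3 of 0h or replicate 2 of 6 weeks (adjusted p = 0.0704 in each case). A second probe set of Racgap1, of similar brightness, gave 0.29, 0.29 and 0.68 and was not called at 2 weeks (adjusted p = 0.521) or at 6 weeks (adjusted p = 0.133).

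Birc5, survivin, which guides the chromosomal passenger complex, ranged from 108.1 to 195.1. It rose 1.37-fold at 2 weeks (log2 0.46 ± 0.13, adjusted p = 0.0235, limma), a call lost without replicate 2 of 0h or replicate 3 of 2 weeks (adjusted p = 0.0793 and 0.0698). Cdc20, which activates the anaphase-promoting complex, rose 1.47-fold at 2 weeks (log2 0.56 ± 0.18, adjusted p = 0.0481, limma). It is less certain, since its 4 other probe sets gave -0.86, 0.07, 1.27 and -1.06 there, and the call was lost in 7 of the 12 cases in which an array was left out, at adjusted p of 0.0645 to 0.139. These were replicates 2 and 3 of 0h, all 3 of 2 weeks and replicate 2 of 4 and of 6 weeks.

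Several other mitotic genes passed no test against 0h. Ube2c, the ubiquitin carrier of the anaphase-promoting complex, ranged from 89.8 to 232.7 and differed by 0.61 at 2 weeks (adjusted p = 0.0919, and 0.0149 without replicate 2 of 4 weeks). Aurka, the kinase of the spindle poles, was dim on 2 of 12 arrays and differed by 1.27 ± 0.49 at 2 weeks (adjusted p = 0.0804). Aurkb, the kinase of the passenger complex, lay between 64.1 and 164.3. Bub1, a kinase of the spindle checkpoint, lay between 53.6 and 145.2, and Kif11, a motor that separates the spindle poles, between 78.2 and 163.9.

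The untested genes had means over the 12 arrays under the level needed for a test. Plk1, a kinase that acts throughout mitosis, was dim on 7 of 12 arrays and gave 115.9, 125.8 and 88.4 at 0h, 66.8, 25.5 and 40.7 at 2 weeks, 14.9, 21.7 and 6.9 at 4 weeks, and then 54.2, 35.2 and 12.6 at 6 weeks. All fed arrays of Plk1 were under those of 0h, and this probe set has no test here. No array of Plk1 at 0h was dim, and it was at least 1.97-fold, 2.2-fold and 2.17-fold lower at 2, 4 and 6 weeks. The authors' deposited table gives log2 ratios of -2.0 to -0.8 for Plk1 at 2 weeks and of -4.1 to -1.9 at 4 weeks. Bub1b, of the spindle checkpoint, was dim on 10 of 12 arrays, with signals of 8.6 to 74.9.

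**Figure D3:**
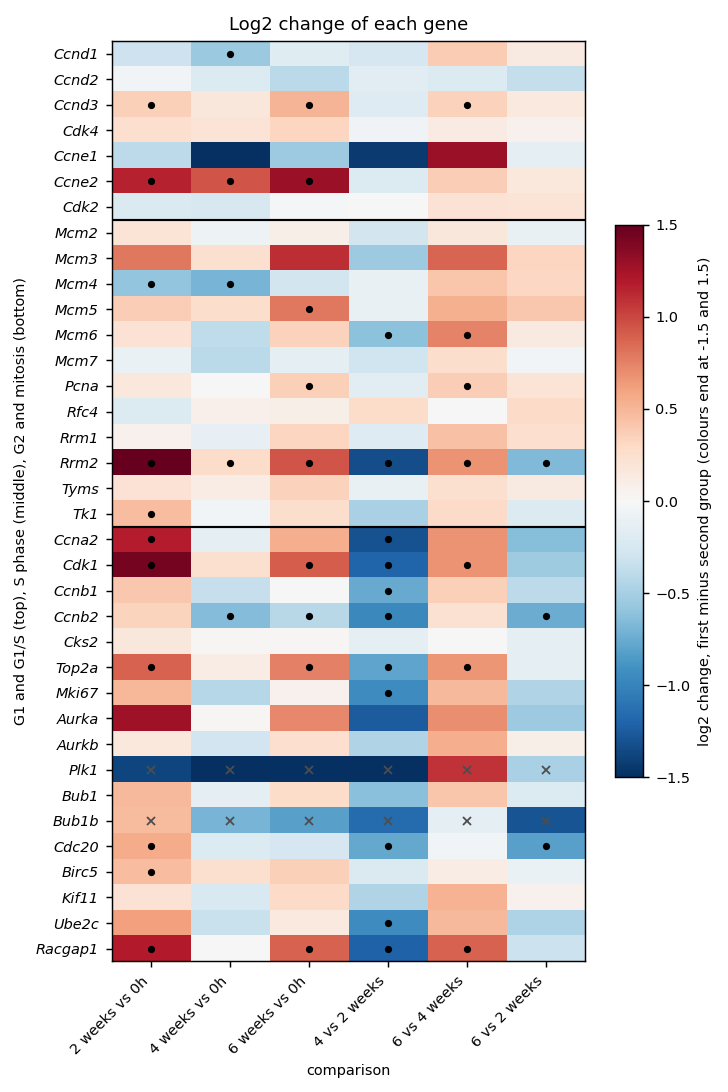
Log2 change of each of the 36 genes (rows, by role) in the 6 comparisons (columns), as colour from blue (lower in the first group) to red (higher). Dots mark genes called by limma at an adjusted p under 0.05 and crosses mark Plk1 and Bub1b, which were not tested. Rrm2 carries a dot in all 6 columns, and columns that share a group are not independent.

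In the promoter windows, CCAAT boxes were present in 10 of 13 mitotic genes (76.9%) and in 6 of 10 S phase genes (60.0%), against 37.5% of all windows. The CHR word was found in 9 of 13 mitotic windows (69.2%) and in 1 of 10 S phase windows (10%), against 18.3% of all, and both words together in 8 of 13 mitotic windows (61.5%), against 7.41%. The genes with both were Cdk1, Ccnb2, Cks2, Top2a, Mki67, Plk1, Cdc20 and Birc5. Among these, Cks2 passed no test and Plk1 was not tested. The 250 bases before the start are shown for 4 genes that hold both words and differed between feeding times, with the words on either strand in capitals. Cdc20 also met these conditions and is not shown. Cdk1 also holds an E2F word, and in Mki67 a CHR word and a CCAAT box on the other strand share a base. Cdk1 lies at chr20:19265043-19265292 on the plus strand. Top2a lies at chr10:84473094-84473343, Ccnb2 at chr8:79981659-79981908 and Mki67 at chr1:199952594-199952843, all on the minus strand.
Cdk1: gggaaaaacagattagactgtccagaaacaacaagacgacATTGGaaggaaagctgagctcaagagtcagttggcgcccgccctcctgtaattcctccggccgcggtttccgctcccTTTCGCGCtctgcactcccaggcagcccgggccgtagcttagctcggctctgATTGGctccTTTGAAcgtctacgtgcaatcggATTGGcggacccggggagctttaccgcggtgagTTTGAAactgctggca
Top2a: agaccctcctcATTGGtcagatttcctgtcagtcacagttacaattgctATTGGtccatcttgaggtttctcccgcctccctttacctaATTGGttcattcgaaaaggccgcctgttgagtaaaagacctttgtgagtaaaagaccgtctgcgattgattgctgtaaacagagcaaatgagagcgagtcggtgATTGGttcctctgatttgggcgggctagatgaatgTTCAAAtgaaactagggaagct
Ccnb2: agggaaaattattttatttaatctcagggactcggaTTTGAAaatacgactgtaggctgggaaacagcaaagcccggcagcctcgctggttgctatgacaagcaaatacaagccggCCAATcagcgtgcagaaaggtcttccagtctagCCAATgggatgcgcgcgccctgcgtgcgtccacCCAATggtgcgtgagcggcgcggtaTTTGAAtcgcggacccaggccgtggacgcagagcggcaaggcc
Mki67: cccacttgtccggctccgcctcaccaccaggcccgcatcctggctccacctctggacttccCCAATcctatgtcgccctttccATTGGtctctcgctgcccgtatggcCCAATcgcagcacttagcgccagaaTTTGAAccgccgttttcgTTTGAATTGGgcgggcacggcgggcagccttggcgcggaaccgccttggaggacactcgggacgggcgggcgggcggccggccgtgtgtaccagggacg

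Between 2 and 4 weeks 9 of 15 mitotic genes fell. Of the 34 tested members 11 were lower at 4 weeks (32.4%) and none was higher by limma, against 8% and 5.13% of all genes (13.1% in either direction), with 16 at an unadjusted p under 0.05. Of all 11322 genes, 2998 had an unadjusted p under 0.05. The median change of the members was -0.45, and only Rfc4 was positive. Of the 11, 9 were genes of G2 and mitosis (Ccna2, Racgap1, Cdk1, Ccnb2, Ube2c, Mki67, Top2a, Cdc20 and Ccnb1), 2 were S phase genes (Rrm2 and Mcm6) and no G1 gene was among them. Rrm2 fell 2.51-fold (log2 -1.33 ± 0.07, adjusted p = 3.38e-06), Cdk1 2.30-fold (-1.20 ± 0.16, adjusted p = 0.0014) and Ccnb2 1.96-fold (-0.97 ± 0.12, adjusted p = 0.000777), by limma. Mki67 fell 1.91-fold (-0.94 ± 0.17, adjusted p = 0.0074) and Racgap1 at least 2.20-fold (-1.21 ± 0.23, adjusted p = 0.0084), although the second probe set of Racgap1 differed by 0.00 here. Ccna2 fell at least 2.14-fold, with an adjusted p of 0.0366, and the smallest of the 11 changes was that of Mcm6 (-0.61, adjusted p = 0.016). The others were Ube2c at -0.94, Top2a at -0.79, Cdc20 at -0.77 and Ccnb1 at -0.76.

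That count rested in part on single arrays. It was 7 without replicate 1 of 2 weeks, 6 without replicate 2 and 5 without replicate 3, and 7 without replicate 1 or replicate 2 of 4 weeks. The calls of Rrm2, Cdk1, Ccnb2, Mki67 and Racgap1 were kept whichever array was left out. The call of Ccnb1 was lost in 10 of 12 cases, with every array except replicates 1 and 2 of 6 weeks (adjusted p up to 0.136), and that of Ccna2 in 9, with every array except replicate 1 of 4 weeks and replicates 1 and 3 of 6 weeks (up to 0.11). The calls of Cdc20 and Ube2c were each lost in 5 cases. For Cdc20 these were the 3 arrays of 2 weeks and replicates 1 and 2 of 4 weeks (up to 0.0815), and for Ube2c the 3 arrays of 2 weeks and replicates 1 and 3 of 4 weeks (up to 0.108). Top2a lost its call without replicate 2 or 3 of 2 weeks or replicate 1 of 4 weeks (up to 0.0601), and Mcm6 without replicate 3 of 2 weeks or replicate 2 of 4 weeks (up to 0.0585). Genes both higher at 2 weeks than at 0h and lower at 4 than at 2 weeks numbered 6 of the 34 members (Rrm2, Cdk1, Racgap1, Ccna2, Top2a and Cdc20) and 3.62% of all genes.

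From 4 to 6 weeks 7 of the 34 members rose (20.6%) and none fell by limma, against 6.27% and 4.12% of all genes (10.4% in either direction). The median change of the members was 0.40, and 13 had an unadjusted p under 0.05, as did 2718 of all 11322 genes. Mcm6 rose 1.67-fold (log2 0.74 ± 0.13, adjusted p = 0.00743), Rrm2 1.59-fold (0.67 ± 0.07, adjusted p = 0.000439) and Pcna 1.29-fold (0.37 ± 0.07, adjusted p = 0.0071), and these 3 calls were kept whichever array was left out. Racgap1 rose at least 1.76-fold (0.89, adjusted p = 0.0385, and 0.499 with its second probe set), Cdk1 by 0.67 (adjusted p = 0.0303), Top2a by 0.66 (adjusted p = 0.0391) and Ccnd3 by 0.34 (adjusted p = 0.0333) on the log2 scale. The count was 4 without replicate 1 or 2 of 4 weeks or replicate 3 of 6 weeks. Each array of 4 and 6 weeks, when left out, cost at least 1 of the 4 last-named calls, as did replicates 1, 2 and 3 of 0h and replicates 1 and 2 of 2 weeks, at adjusted p of up to 0.124 for Racgap1, 0.122 for Top2a, 0.111 for Ccnd3 and 0.0968 for Cdk1.

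Few members differed between 2 and 6 weeks, in a share near that of all genes. Compared with 2 weeks, 3 of 34 were lower at 6 weeks (8.82%) and none was higher by limma, against 5.74% and 4.78% of all genes (10.5% in either direction). Of the 34, 6 had an unadjusted p under 0.05, as did 2728 of all 11322 genes. Rrm2 was 1.58-fold lower (log2 -0.66 ± 0.07, adjusted p = 0.000419), Ccnb2 1.67-fold lower (-0.74 ± 0.12, adjusted p = 0.0043) and Cdc20 1.75-fold lower (-0.81 ± 0.18, adjusted p = 0.0219). The Cdc20 call was lost without any 1 array of 2 weeks or replicates 2 or 3 of 6 weeks (adjusted p of 0.0532 to 0.0759). Cdk1 differed by -0.53 (adjusted p = 0.0735, and 0.0183 without replicate 3 of 0h) and Top2a by -0.13 (adjusted p = 0.71).

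Other genes of the same processes were read from lists of replication, mitosis and regulation. Of 34 tested further genes of mitosis, 11 were higher and 1 was lower at 2 weeks, 3 were higher and 5 lower at 4 weeks, and 8 were higher and 1 lower at 6 weeks, and their median log2 change was 0.42, 0.02 and 0.38. Those called higher were 32.4%, 8.82% and 23.5% of the list, against 15.5%, 14.3% and 14.7% of all genes, and those called lower 2.94%, 14.7% and 2.94%, against 12.6%, 15.1% and 12.6%. Pbk, a mitotic kinase, was dim on all 3 arrays at 0h. Compared with 0h, Pbk at 2, 4 and 6 weeks was higher by at least 2.21-fold, 1.30-fold and 2.28-fold. The others with the largest changes at 2 weeks were Cdc25b, a phosphatase that activates Cdk1 (log2 1.17, adjusted p = 0.000223, limma), Spc24 of the outer kinetochore (1.14, adjusted p = 0.000521) and Cdca3 (1.04, adjusted p = 0.000571). Spc24 was also higher at 4 weeks (0.64) and 6 weeks (0.87), and Cdca3 (0.61) and Spc25 (0.78) at 6 weeks. Kif20a, a motor of cytokinesis, was dim on all arrays at 4 weeks and at least 2.18-fold lower than at 0h, and the condensin subunit Ncaph was lower, at -0.76. The calls of Kif20a and of Spc25 were lost in 9 and 4 of the 12 cases in which an array was left out. Between 2 and 4 weeks 11 of the further mitosis genes fell (32.4%, against 8% of all genes) and none rose by limma, with a median of -0.62. Of the 34, 17 had an unadjusted p under 0.05, as did 2998 of all 11322 genes.

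Of 38 tested further replication genes, 2 were higher and 3 lower at 2 weeks, 3 were higher and 9 lower at 4 weeks, and 5 were higher and 3 lower at 6 weeks, with median log2 changes of -0.08, -0.10 and 0.10. At 2 weeks these were 5.26% and 7.89%, under the 15.5% and 12.6% of all genes. At 4 weeks they were 7.89% and 23.7%, where all genes had 14.3% and 15.1%, and at 6 weeks 13.2% and 7.89%, where all genes had 14.7% and 12.6%. Fen1, the flap endonuclease, fell by 1.09 at 2 weeks (adjusted p = 0.0288, limma) and at least 2.09-fold at 4 weeks. Orc5 of the origin recognition complex rose by 0.48 and Rpa1 of the single-strand binding complex by 0.43 at 2 weeks, while Rfc1 of the clamp loader fell by 0.48. At 4 weeks the licensing factor Cdt1 was at least 1.94-fold lower, Gins1 at least 1.76-fold and Mcm8 at least 1.59-fold, with 2 or 3 of the 3 arrays at 4 weeks dim. At 6 weeks geminin, Gmnn, the inhibitor of Cdt1, was at least 2.13-fold higher, with 2 dim arrays at 0h. Orc5 was higher by 0.48 at 6 weeks, and Rfc1 was lower (-0.47). Of 12 cases with an array left out, the calls of Mcm8 were lost in 11, of Gmnn in 5, of Fen1 in 4 at 2 weeks and 2 at 4 weeks, and of Gins1 in 1. With the second brightest probe set, the calls of Orc5 (adjusted p = 0.975 at 2 weeks and 0.271 at 6 weeks) and of Rfc1 (adjusted p = 0.975 and 0.808) were lost.

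Among 27 tested regulators and inhibitors, 4 were higher and 6 lower at 2 weeks, 5 were higher and 4 lower at 4 weeks, and 4 were higher and 3 lower at 6 weeks. The shares were 14.8% and 22.2%, 18.5% and 14.8%, and 14.8% and 11.1%, set against 15.5% and 12.6%, 14.3% and 15.1%, and 14.7% and 12.6% of all genes. The inhibitor of cyclin-dependent kinases Cdkn1a, p21, was higher at all 3 times, by 2.16 ± 0.20, 2.12 ± 0.20 and 1.55 ± 0.20 on the log2 scale (adjusted p = 5.71e-05, 5.98e-05 and 0.000392, limma). Wee1, a kinase that holds Cdk1 inactive, was higher by 0.94, 0.65 and 1.16, and Myc, a growth regulator, by 1.18, 0.77 and 0.45. Cdkn2d, an inhibitor of Cdk4, was lower at 4 weeks, at -0.74 on the log2 scale. The called subunits of the MuvB complex, which binds the CHR, did not move one way. Lin9 was lower at 2 weeks, by at least 1.72-fold, and Lin54 at all 3 times (-0.56, -0.45 and -0.46). Lin37, added after its values were seen, was higher at all 3 times (0.32, 0.24 and 0.31). Of 12 cases with an array left out, the call of Lin9 at 2 weeks was lost in 5, that of Lin54 at 6 weeks in 4 and that of Wee1 at 4 weeks in 1. With the second brightest probe set, the calls of Wee1 at 2, 4 and 6 weeks (adjusted p = 0.173, 0.816 and 0.0561) and of Cdkn2d (adjusted p = 0.438) were lost.

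Summed signals of several lists of cell type markers differed between the groups, and their part in the changes of the cell cycle genes was not tested. The summed signal of 8 macrophage markers was 26909 to 27349 at 0h, 31756 to 33185 at 2 weeks, 20353 to 21330 at 4 weeks and 22541 to 24929 at 6 weeks, with 3 of 8 called higher at 2 weeks, 6 lower at 4 weeks and 3 lower at 6 weeks. That of 10 markers of stellate cells and fibroblasts was 6562 to 6835, 10186 to 10449, 6580 to 6850 and 5789 to 5944, with 7 of 10 higher at 2 weeks, 1 higher and 1 lower at 4 weeks, and 2 higher and 4 lower at 6 weeks. Both sums were highest at 2 weeks, without overlap with the other groups. Of all genes, 15.5%, 14.3% and 14.7% were called higher at 2, 4 and 6 weeks, and 12.6%, 15.1% and 12.6% lower.

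Of the other lists, 3 neutrophil markers summed to 4215 to 4475 at 0h, 7666 to 7993 at 2 weeks, 2166 to 2312 at 4 weeks and 4272 to 4479 at 6 weeks, with both tested ones higher at 2 weeks and lower at 4 weeks. The 8 endothelial markers summed to 8978 to 9713, 11101 to 11619, 7925 to 8389 and 7851 to 8546 (2 of 8 higher at 2 weeks, 3 lower at 4 and 3 lower at 6 weeks). The 7 erythroid markers summed to 29913 to 32977, 41773 to 44490, 33121 to 36390 and 31136 to 32422. Of the 5 tested, 4 were higher at 2 weeks, 1 was higher at 4 weeks, and 2 were higher and 1 lower at 6 weeks. The 11 T and NK cell markers were at 2444 to 2506, 1497 to 1831, 1607 to 1656 and 2496 to 2729 (3 of 10 tested lower at 2 weeks, 6 lower at 4 weeks, and 1 higher and 1 lower at 6 weeks). The 4 B cell markers lay between 289 and 423 on all arrays with none called, and 6 cholangiocyte markers between 1267 and 1743 with 1 of 4 tested higher at 2 weeks. Hepatocyte markers were called in 1 of 8 cases higher and 1 lower at 2 weeks, 1 lower at 4 weeks and 2 lower at 6 weeks. At 2 weeks 12.5% of the hepatocyte markers and 25% of the tested endothelial and cholangiocyte markers were higher, against 15.5% of all genes. With so few genes per list, such shares rest on 1 or 2 calls. The defining markers Krt7 and Sox9 of cholangiocytes were dim on all 3 arrays of at least 1 group, as were Camp of neutrophils, Cd2 of T cells, and Epb42 and Klf1 of erythroid cells.

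The 0h arrays also stood apart from the fed arrays in 2 other measures. The 12 exocrine pancreas markers summed to 8222 to 9088 at 0h and to 838 to 1627 on the 9 fed arrays. The GAPDH control, whose 3′ signal over 5′ signal rises as RNA degrades, had a log2 ratio of 0.11 to 0.25 at 0h, 0.44 to 0.49 at 2 weeks, 0.30 to 0.36 at 4 weeks and 0.28 to 0.35 at 6 weeks. These ran alongside the comparisons with 0h. The GAPDH ratio at 2 weeks also lay above that at 4 and 6 weeks without overlap, so it ran alongside those comparisons too. The part of either measure in the comparisons was not tested.

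**Figure D4:**
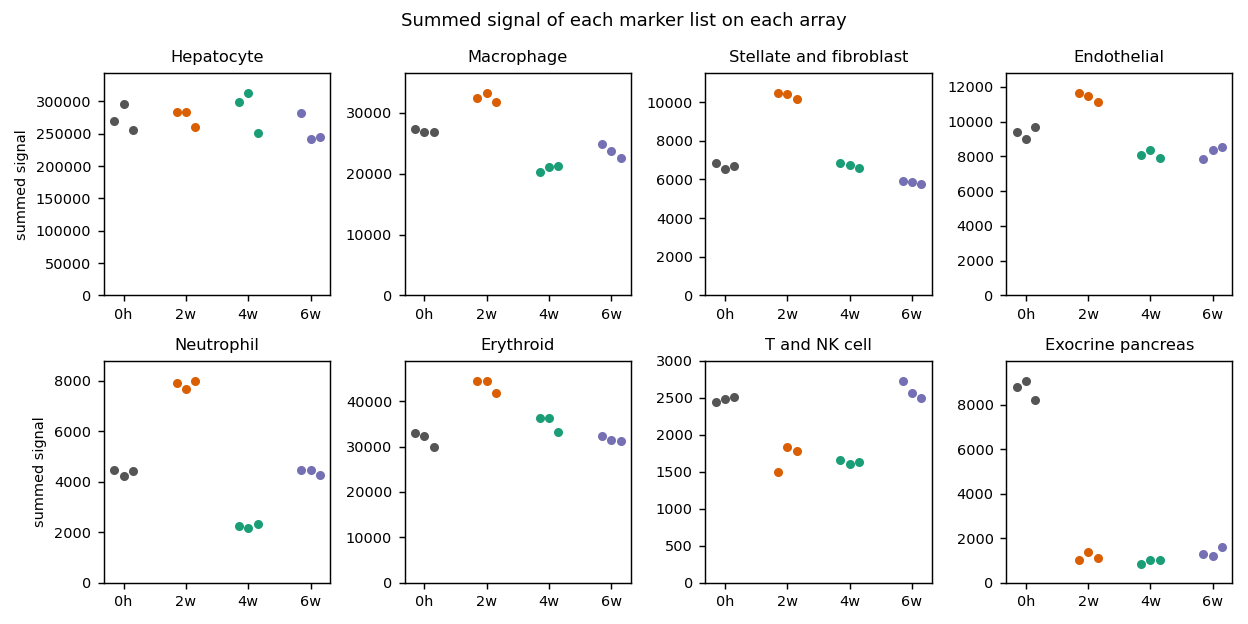
Summed signal (vertical axis) of each marker list on each of the 12 arrays (points) by group (horizontal axis), with axes that start at 0. The macrophage, stellate and fibroblast, neutrophil, endothelial and erythroid sums are highest at 2 weeks, and the exocrine pancreas sum is 8222 to 9088 at 0h and at most 1627 on fed arrays.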

How the data were processed

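Total RNA of the 12 liver samples was hybridised to Affymetrix Rat Genome 230 2.0 arrays, 1 per sample. The values the authors deposited are linear signal intensities per probe set, and the submitters' processing notes name GCOS 2.0. A sheet deposited by the authors repeats these intensities (within 0.1) for 31099 probe sets, with gene symbols and, per the file headers, log2 values and linear ratios of each fed array over each 0h array, 9 per fed group. The log2 ratios are quoted where named and the linear ratios were not used. No detection calls were used.

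From there, signals were converted to log2(signal + 1), so the folds are on that scale and those of dim genes can be too small. After 57 controls, 19885 probe sets had 1 symbol, 23 several and 11134 none. Symbols were updated through the RefSeq gene table of GRCr8, used for names only (promoter windows have their own table), with 3208 probe sets renamed through an older symbol. Members with several probe sets numbered 10. Differences between group means were tested by limma (version 3.58.1, R version 4.3.3) with 1 variance estimate from all 12 arrays, leaving 8 residual degrees of freedom. The p-values were adjusted by Benjamini-Hochberg over 11322 genes within each of 6 comparisons, and a gene was called at 0.05. Precision is limited by 3 arrays per group. Where arrays of the lower group were dim, a fold is a lower bound, taken against each array's 30th percentile or the signal itself, whichever was higher.

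Array by array values are given for Mki67, Pcna, Top2a, Cdk1, Ccna2 and Ccnd1 and, by role and comparison with 0h, for the 4 called members with the largest change. Of each other list, the 4 called genes with the largest change against 0h are named, except 1 that is not reported here. Array values of Plk1, Ccne1 and Mcm3 were added after they were seen. The members and all lists were chosen with earlier results of these data known.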

Additional observations from a re-analysis of the deposited data

Results flagged for a closer look

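The 21 differences between feeding times that passed limma's test among the member genes are collected here, since each is a test of whether 2 feeding times differ in their distance from 0h. Groups of 3 arrays were too small to test for single outlying arrays. From 2 to 4 weeks the log2 change was -1.33 for Rrm2, -1.31 for Ccna2, -1.21 for Racgap1, -1.20 for Cdk1, -0.97 for Ccnb2, -0.94 for Mki67, -0.94 for Ube2c, -0.79 for Top2a, -0.77 for Cdc20, -0.76 for Ccnb1 and -0.61 for Mcm6. From 4 to 6 weeks it was 0.89 for Racgap1, 0.74 for Mcm6, 0.67 for Rrm2, 0.67 for Cdk1, 0.66 for Top2a, 0.37 for Pcna and 0.34 for Ccnd3. From 2 to 6 weeks it was -0.81 for Cdc20, -0.74 for Ccnb2 and -0.66 for Rrm2. Rrm2 is the only member in all 3 sets, and Ccnb2 fell from 2 to 4 weeks with a difference of 0.23 from 4 to 6 weeks that did not pass (adjusted p = 0.283).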

How the results depend on the processing

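Each result was recomputed under 24 alternatives, 1 of which, raising signals to the dim level of their array, was chosen after seeing the data. Of 46 calls of members, 15 were the same in all alternatives and 31 were lost in at least 1. With each array left out in turn, 27 of the 46 were kept throughout. The number of members called ran from 7 to 12 at 2 weeks, 4 to 6 at 4 weeks and 7 to 10 at 6 weeks against 0h, from 5 to 11 for 4 against 2 weeks, 4 to 8 for 6 against 4 weeks and 2 to 4 for 6 against 2 weeks, and from 12 to 15 in the F test.

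With the second brightest probe set of each gene, 7, 3 and 5 members were called at 2, 4 and 6 weeks against 0h, 7 for 4 against 2 weeks, 4 for 6 against 4 weeks and 1 for 6 against 2 weeks. With the mean of the probe sets, 3 were called at 4 weeks against 0h and 1 for 6 against 2 weeks. For 6 against 4 weeks the number was 4 with no filter, 3 with the replicate block and 4 with only the compared groups, which gave 7 for 4 against 2 weeks. The change of Racgap1 between 2 and 4 weeks was 0 with its second probe set (adjusted p = 0.999), and that of Cdc20 at 2 weeks was -0.01 with the mean of its probe sets (adjusted p = 0.99). The cause was not tested.

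Replicate numbers did not pair the arrays: deviations of same-numbered arrays correlated at -0.023 to 0.078 over 18 pairs, and 5 of 12 arrays correlated best with their own number. With the replicate block, 9, 5 and 9 members were called against 0h. The number of arrays, and signals near background for Ccne1, Ccne2, Mcm3, Ccna2, Aurka, Racgap1, Plk1 and Bub1b, limit these results. Of 36 calls of listed genes, 18 were the same in all alternatives.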
